A study of Mus musculus with 42 samples.

Results

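The Notch pathway was followed through 10 genes: the receptors Notch1, Notch2 and Notch3, the ligands Dll1, Dll4, Jag1 and Jag2, and the targets Hes1, Hey1 and Nrarp. They were taken as the rows with those names, 10 of 19232 gene names in the 12 tables of the series, and 113 of the 120 possible pairs of member and table were listed. Hey1 was not listed in the 4 organoid tables and in the 2 goblet tables of GS4M2, and Nrarp was not listed for the proximal GA3T comparison. 50 further genes of the pathway were followed as counts.

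Notch receptors are cut when a Delta or Jagged ligand on a neighboring cell pulls on them, and the freed intracellular part enters the nucleus and joins the DNA-binding protein RBPJ. Hes1 and Hey1, which encode transcriptional repressors, and Nrarp, which encodes a feedback inhibitor that destabilizes the intracellular part, are among the genes switched on. In the colon epithelium, Notch signaling keeps progenitors undifferentiated through Hes1, which represses Atoh1, and goblet cells arise where the signal is low. In the stroma, Notch3 is known from pericytes and smooth muscle, and Dll4 and Notch4 from endothelium.

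RNA sequencing covered 42 mouse libraries in 18 groups. The proximal and distal colon each gave sorted Muc2-mCherry+ goblet cells and tdTomato+ stromal cells, with 2 libraries per group, on day 30 after tamoxifen, which was injected for 5 days into mice aged 2 to 4 months. All sorted-cell mice, controls included, carry Gli1-CreERT2, in which the Gli1 promoter drives the recombinase in stromal cells. The goblet groups were GWTM2 (control with Muc2-mCherry), GS4M2 (also Smad4 fl/fl) and GA3M2 (also Alk3 fl/fl, the gene listed as Bmpr1a), so the deletion lies in the stroma and not in the sorted cells. The stromal groups were GWTT (control with Rosa26-tdTomato), GS4T (Smad4 fl/fl) and GA3T (Alk3 fl/fl), sorted by the lineage label of the recombined cells themselves. Organoids from wild-type distal colon, grown in a medium with Noggin, Wnt3a and CHIR, received nothing (Control), 10 nM IL1 (IL-1α and IL-1β) or 10 nM IL17A for 12 or 72 h, with 3 labelled libraries per group. Nothing in the labels says whether libraries of a group came from separate animals or cultures, so p-values measure only the spread between these libraries. With 2 libraries per group, groups without overlap also arise by chance, and their share over all genes was not counted.

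Depth on named genes was 15647603 to 20783127 reads in goblet, 14222902 to 23686940 in stromal and 14815170 to 17665812 in organoid libraries. Smad4 stood at 680.3 to 1171 normalized counts (reads divided by the library's size factor) in GS4T and at 1604 to 1781 in the matching GWTT libraries, and Bmpr1a at 1842 to 2233 in GA3T against 2960.0 to 3485 in GWTT. Gli1 was at 38.0 to 99.6 CPM (reads scaled to library size) in 10 of the 12 stromal libraries, but at 1.40 CPM in proximal GS4T library 2 and 1.98 CPM in proximal GA3T library 2. Goblet libraries held the goblet markers at 10023 to 63128 CPM in sum and the fibroblast markers at 0.575 to 29.8 CPM, and stromal libraries held the fibroblast markers at 41861 to 58185 CPM. By Xist and Y-linked genes, 9 of the 12 stromal libraries and 2 of the 12 goblet libraries, 1 GWTM2 library of each segment, were from females. The male stromal libraries were proximal GWTT library 1, proximal GA3T library 1 and distal GA3T library 1, so sex was uneven between the stromal groups.

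Levels of different genes were set side by side only as CPM per kilobase of exon. In control stromal cells Hes1 was far above the rest, with 125 ± 15.5 CPM per kilobase (mean ± SD, n = 4 libraries over both segments). Notch2 followed at 12.9 ± 1.71, ahead of Jag1 at 5.78 ± 2.02, Notch1 at 2.53 ± 0.523, Hey1 at 2.36 ± 0.659 and Notch3 at 1.53 ± 0.248. Dll1 had no single place in that order, because it stood at 2.79 ± 0.803 in the proximal and 15.8 ± 2.16 in the distal segment (n = 2 each). Jag2 (0.689 ± 0.358), Dll4 (0.58 ± 0.425) and Nrarp (0.111 ± 0.0562) were lowest. Between neighbors in this order, Notch1, Hey1 and Notch3 did not differ beyond their SD, nor did Jag2 and Dll4 or Dll4 and Nrarp.

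Control goblet cells had another order. Hes1 again led, at 30.3 ± 3.38 CPM per kilobase, followed by the ligands Dll4 at 9.56 ± 2.56, Dll1 at 6.62 ± 0.815 and Jag1 at 5.18 ± 0.511 (n = 4 libraries). Among the 3 member receptors Notch1 was highest at 3.09 ± 0.746, beside Nrarp at 2.64 ± 0.335. Notch4, which is not a member, was not ranked per kilobase. Dll4 and Dll1 lay within their spread, as did Notch1 and Nrarp. Jag2 (0.758 ± 0.2) and Notch2 (0.564 ± 0.16) were lower and lay within their spread, and Hey1 (0.092 ± 0.0437) and Notch3 (0.0626 ± 0.0378) were lowest, again without a difference beyond their SD. In the 4 distinct organoid control libraries Hes1 was 34.3 ± 4.19, Notch1 3.98 ± 0.875, Jag1 3.48 ± 0.606, Dll4 3.08 ± 0.649, Notch2 1.97 ± 0.293 and Dll1 1.96 ± 0.649 CPM per kilobase. Nrarp (1.11 ± 0.355), Jag2 (0.949 ± 0.343) and Notch3 (0.25 ± 0.103) were lower. Notch1, Jag1 and Dll4 did not differ beyond their spread there, nor did Notch2 and Dll1, Dll1 and Nrarp, or Nrarp and Jag2. The organoids, from distal colon, thus held Dll4, Dll1, Jag1 and Nrarp below, and Notch2 and Notch3 above, every control goblet library of both segments. Hes1, Notch1 and Jag2 overlapped. These differences are given as values with no test.

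**Figure D1:**
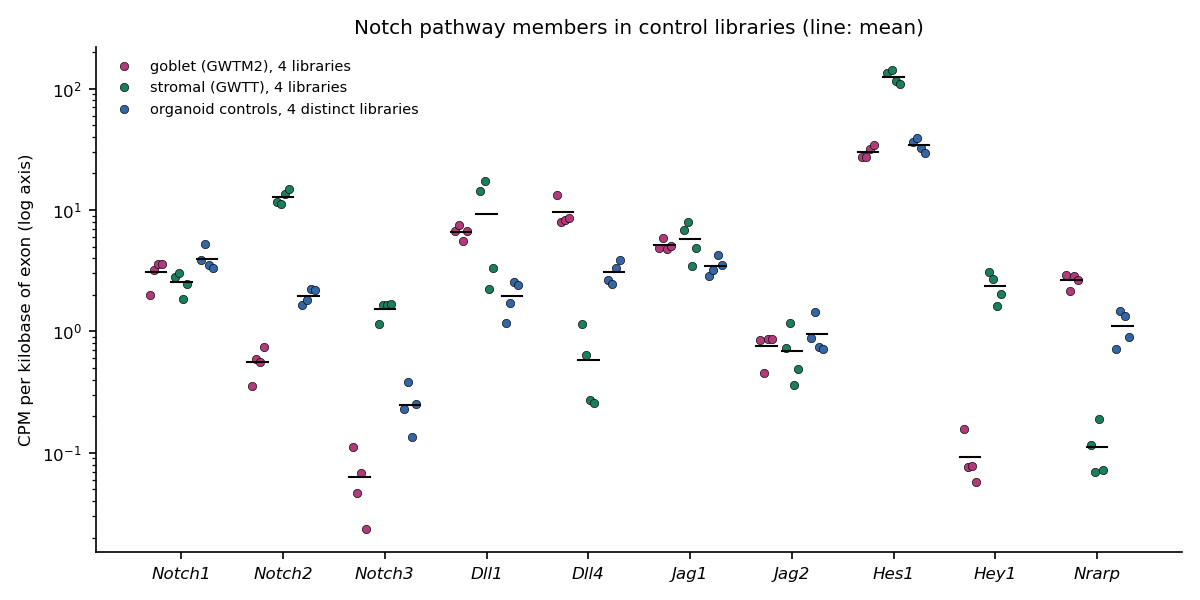
CPM per kilobase of exon (log axis) of the 10 members in control libraries. Each point is 1 library, the line is the mean, and Hey1 has no organoid points because it was not listed there. Hes1 is highest in all 3 sources, and Notch2, Notch3, Hes1 and Hey1 sit higher in stromal than in goblet cells, where Dll4 and Nrarp are higher.

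To ask which side of the goblet and stromal pair carries which part of the pathway, the 4 GWTM2 and 4 GWTT libraries were compared as log2(CPM + 1) with the segment as a covariate. 6 of the 10 members were called at an adjusted p under 0.05 (limma, Benjamini-Hochberg over all genes, as for all calls below), against 75.7% of all 12622 genes tested, so a call in itself is no mark of these genes. Another 5418 genes, listed for only some of these libraries, among them Gli1, could not be tested. The receptors Notch2 and Notch3 and the targets Hes1 and Hey1 were higher in stromal cells, and the ligand Dll4 and the feedback inhibitor Nrarp were higher in goblet cells. Values are given from the lowest to the highest library. Fewer cells of a type and less RNA per cell cannot be told apart in these bulk libraries, here and below.

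Notch2, a receptor, was at 3.85, 6.05, 6.38 and 8.06 CPM in goblet cells and at 121, 126, 147 and 161 CPM in stromal cells. The difference, goblet minus stromal, was -4.33 (SE 0.15, adjusted p = 1.2e-07) on the log2 scale. Notch3 was at 0.189, 0.375, 0.555 and 0.907 CPM against 9.36, 13.3, 13.3 and 13.5 CPM, a difference of -3.16 (SE 0.20, adjusted p = 2.6e-06). Both receptors were thus lower in every goblet library than in any stromal one. The targets Hes1 and Hey1 went the same way. Hes1 was at 55.7, 56.1, 65.4 and 69.5 CPM in goblet and 221, 237, 273 and 289.8 CPM in stromal cells, a log2 difference of -2.03 (SE 0.12, adjusted p = 1.4e-06). Hey1 was at 0.189, 0.25, 0.252 and 0.51 CPM against 5.32, 6.61, 8.88 and 10.1 CPM, a log2 difference of -2.72 (SE 0.16, adjusted p = 1.9e-06).

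Dll4, a Delta ligand, was the largest difference toward goblet cells, with 30.8, 32.0, 33.0 and 51.6 CPM against 0.988, 1.04, 2.44 and 4.47 CPM and a log2 difference of 3.65 (SE 0.25, adjusted p = 3.9e-06). Nrarp was at 5.57, 6.86, 7.31 and 7.48 CPM in goblet cells and at 0.179, 0.185, 0.298 and 0.489 CPM in stromal cells, a log2 difference of 2.60 (SE 0.16, adjusted p = 1.8e-06). Neither gene's groups overlapped. Notch3, Hey1 and Nrarp passed the filter of a mean of 1 CPM only through the cell type in which they are high.

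Notch1, Dll1, Jag1 and Jag2 were not called, with adjusted p of 0.31, 0.98, 0.65 and 0.62. Notch1 was called without distal GWTM2 library 1, its lowest goblet value, with a difference of 0.49 (adjusted p = 0.028). Within segments, Notch1 was 0.74 (SE 0.17, adjusted p = 0.015) and Jag2 0.83 (SE 0.21, adjusted p = 0.021) higher in proximal goblet than proximal stromal cells on the log2 scale, both called, beside 67.4% of all genes. In the distal colon Notch1, Jag1 and Jag2 had differences of -0.20, -0.44 and -0.47, none called, beside 64.7% of all genes, and proximal Jag1 was 0.26. Dll1 was called in both segments, in opposite directions. In the proximal colon Dll1 was 1.09 (SE 0.24, adjusted p = 0.014) higher in goblet than in stromal cells on the log2 scale, and in the distal colon the difference was -1.12 (SE 0.15, adjusted p = 0.0018). The interaction of cell type and segment, proximal minus distal, was 2.21 (SE 0.30, adjusted p = 0.032). Dll1 was the only one of the 10 members with a called interaction, against 1.22% of all genes, and it was lost with edgeR, with a pseudocount of 0.1 and without any 1 of 5 of the 8 libraries (both proximal GWTM2, both distal GWTT and proximal GWTT library 1). Stromal Dll1 was 9.36 and 14.1 CPM in the 2 proximal and 60.1 and 73.0 CPM in the 2 distal GWTT libraries, while goblet Dll1 stayed between 23.2 and 31.5 CPM.

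Of the 50 other pathway genes 36 were tested in this comparison, 14 were higher in goblet and 16 higher in stromal cells, or 30 of 36 beside the 75.7% of all genes. Atoh1, the goblet lineage factor that Hes1 represses, was at 311 ± 38.9 CPM in goblet cells and 0.591 ± 0.424 CPM in stromal cells. Neurl1b, a ubiquitin ligase that acts on ligands, was higher in goblet cells by 2.67 on the log2 scale, as was the receptor Notch4 by 3.48. Numbl, a Numb family inhibitor, was lower there, with a log2 difference of -6.90, and so were the Deltex family gene Dtx3 (-5.33) and the co-activator Maml2 (-4.61). Numbl and Maml2 averaged 0.393 and 0.493 CPM in goblet cells, so they, like Atoh1, passed the filter only through the cell type in which they are high.

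Loss of Smad4 in the stromal cells themselves was the setting with called members in both segments. 2 of the 9 members tested were called in the proximal segment, 1 higher and 1 lower, beside 15.6% of all genes. In the distal segment 4 of 10 were called, 2 higher and 2 lower, beside 23.2% of all genes. The median log2 fold change of the members tested was 0.62 in the proximal and -0.044 in the distal comparison, where that of all genes was 0.022 and 0.0049. DESeq2 called 6 of the 9 proximal members, beside 23.5% of all genes, adding Notch1, Notch2, Notch3 and Dll4.

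Hes1 fell in GS4T cells of both segments. In the proximal colon it was at 4013 and 3672 normalized counts in GWTT and 1618 and 1957 in GS4T, a log2 fold change of -1.11 (SE 0.13, adjusted p = 0.011). In the distal colon it was at 4477 and 4708 in GWTT and 1225 and 1916 in GS4T, a log2 fold change of -1.58 (SE 0.21, adjusted p = 0.0066). In neither segment did the groups overlap, and the means were 2.15-fold and 2.92-fold lower. Without proximal GS4T library 2, in which Gli1 was low, Hes1 was called at -1.25 (adjusted p = 0.045), and without library 1 it was not, at -0.97 (adjusted p = 0.077). The distal call held without any 1 library. Hey1 fell in the distal colon, from 165 and 144 normalized counts to 70.0 and 72.8, a log2 fold change of -1.10 (SE 0.26, adjusted p = 0.034), a call lost on leaving out any 1 of the 4 libraries (adjusted p of 0.063 to 0.22). In the proximal colon its values were 90.0 and 109.6 in GWTT and 67.3 and 53.8 in GS4T, with an adjusted p of 0.18. Nrarp, the third target, was at 4.89 and 2.90 normalized counts in distal GWTT and 15.1 and 20.0 in distal GS4T (adjusted p = 0.10), and was below the filter in the proximal colon. In the distal colon Nrarp passed the filter only through the GS4T libraries, so its p-value there cannot serve as support for a rise.

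Genes of the dissociation and heat shock list moved with Hes1. 9 of its 10 members were lower in proximal and 6 of 10 in distal GS4T cells, with none higher, and the list summed to 8444 to 14225 CPM in GWTT and 4320.3 to 5594 CPM in GS4T libraries. Egr1, an immediate early gene, was at 2263 to 4269.6 CPM in GWTT and 849 to 1358 CPM in GS4T. The immune list summed to 1715 to 2979 CPM in proximal GWTT and 1482 to 1503 CPM in proximal GS4T, and to 3925 to 5116 CPM in distal GWTT and 1270.0 to 1577 CPM in distal GS4T, with no overlap in either segment. By gene, 4 of its 9 genes were higher and 1 lower in the proximal, and 3 higher and 2 lower in the distal comparison. The part of both lists in the Hes1 and Hey1 values was not tested. Over all 12 stromal libraries the 2 genes whose log2(CPM + 1) was most like that of Hes1 were Slc49a4 (r = 0.97) and Kif13a (r = 0.97), and for Hey1 they were Mme (r = 0.98) and Itgb8 (r = 0.94), from 14417 genes.

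Among the receptors, Notch3 rose in distal GS4T cells. Its values were 154 and 216 normalized counts in GWTT and 1277 and 802 in GS4T, a log2 fold change of 2.47 (SE 0.28, adjusted p = 0.0041), the largest of a called member in the stromal comparisons, and it was called without any 1 library as well. In the proximal colon Notch3 was at 224 and 224 in GWTT and at 386 and 896 in GS4T, where the 2 knockout libraries lay far apart and the adjusted p was 0.077. Notch1 was at 653 and 704 in distal GWTT and 951 and 1045 in distal GS4T, a log2 fold change of 0.56 (SE 0.12, adjusted p = 0.027), and the call held only on leaving out GS4T library 1 (0.62, adjusted p = 0.043), with an adjusted p up to 0.18 otherwise. In the proximal colon its values were 443 and 580.0 in GWTT and 816 and 742 in GS4T, with no overlap and an adjusted p of 0.068. Notch2, the most abundant receptor, was not called in either segment, its log2 fold change being -0.41 (adjusted p = 0.066) in the proximal and 0.084 (adjusted p = 0.63) in the distal colon.

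Pericyte genes stood beside Notch3. In the smooth muscle and pericyte list 2 of 10 genes were higher in proximal GS4T cells, and in distal ones 5 were higher and 1 was lower. Rgs5, a pericyte marker, was at 52.2 to 64.6 CPM in GWTT, 74.3 to 148 CPM in proximal and 179.9 to 239 CPM in distal GS4T libraries. Abcc9, a potassium channel subunit of pericytes, was at 36.6 to 46.8 CPM in GWTT and 153 to 191 CPM in distal GS4T. The list summed to 1480.3 to 1536 CPM in distal GWTT and 1909.8 to 2587 CPM in distal GS4T. In the proximal colon it summed to 781.6 to 882.3 CPM in GWTT and 1477.4 to 1802.1 CPM in GS4T. In GA3T libraries Notch3 was at 14.35 to 24.98 CPM, above the 9.36 to 13.5 CPM of GWTT. Rgs5 was at 40.1 to 72.7 CPM there and overlapped GWTT, as did Abcc9 at 34.8 to 80.8 CPM. Kcnj8, another gene of the list, was at 30.8 to 97.5 CPM in GA3T and 15.8 to 30.3 CPM in GWTT. The whole list summed to 1262.3 to 1743.9 CPM in proximal and 1601.3 to 1651.8 CPM in distal GA3T. Both ranges lay above the GWTT libraries of the same segment, though no gene of the list was called in GA3T. The genes most like Notch3 over the 12 stromal libraries were Ubxn8 (r = 0.96) and Pgk1 (r = 0.96). The part of the list in the Notch3 values was not tested.

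The ligand called after Smad4 loss was Dll1, in the proximal comparison. Proximal values were 158 and 235 normalized counts in GWTT and 854 and 779 in GS4T, a log2 fold change of 2.08 (SE 0.22, adjusted p = 0.0091). Distal values were 987 and 1186 in GWTT and 899.9 and 1062 in GS4T, with overlapping groups. Without proximal GS4T library 2, in which Gli1 was low, the proximal value was 2.14 (adjusted p = 0.069), and without library 1 it was 2.01 (adjusted p = 0.092) and neither was called. The difference between the segments' fold changes, proximal minus distal, was 2.22 (SE 0.29, adjusted p = 0.048), and Dll1 was the 1 member of 9 called in that interaction, against 0.189% of genes. It was not called with edgeR, with a pseudocount of 0.1 or without any 1 library except proximal GWTT library 2, where it was 2.51 (adjusted p = 0.024).

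Dll4 was at 17.6 and 16.4 normalized counts in proximal GWTT and 40.6 and 108 in proximal GS4T (adjusted p = 0.090), and at 73.3 and 39.7 in distal GWTT and 17.7 and 156 in distal GS4T. The distal GS4T libraries lay on either side of their controls. Endothelial genes varied in the same libraries. Of that list of 11 genes 3 were higher and 1 was lower in proximal GS4T cells, and 1 was lower in distal ones. The list summed to 187.4 to 195.5 CPM in proximal GWTT and 116.1 to 199.6 CPM in proximal GS4T, which overlap. In the distal colon it summed to 156 to 165 CPM in GWTT and 88.3 to 349.9 CPM in GS4T, with Cdh5, the endothelial cadherin, at 3.67 and 31.7 CPM in distal GS4T. The genes most like Dll4 over the 12 stromal libraries were Plvap (r = 0.96) and Cdh5 (r = 0.95), both in the endothelial list. Jag2 was at 42.4 and 56.4 in proximal GWTT and 95.0 and 111 in proximal GS4T (adjusted p = 0.090), and Jag1 overlapped between the groups in both segments. Of the 7 epithelial genes 1 was higher in proximal and 7 were higher in distal GS4T cells, and the list summed to 13.7 to 541 CPM in GWTT and 727 to 1681 CPM in GS4T. Epcam was at 3.12 to 63.9 CPM in GWTT and 115 to 229 CPM in GS4T libraries, and the part of these lists in the ligand values was not tested.

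**Figure D2:**
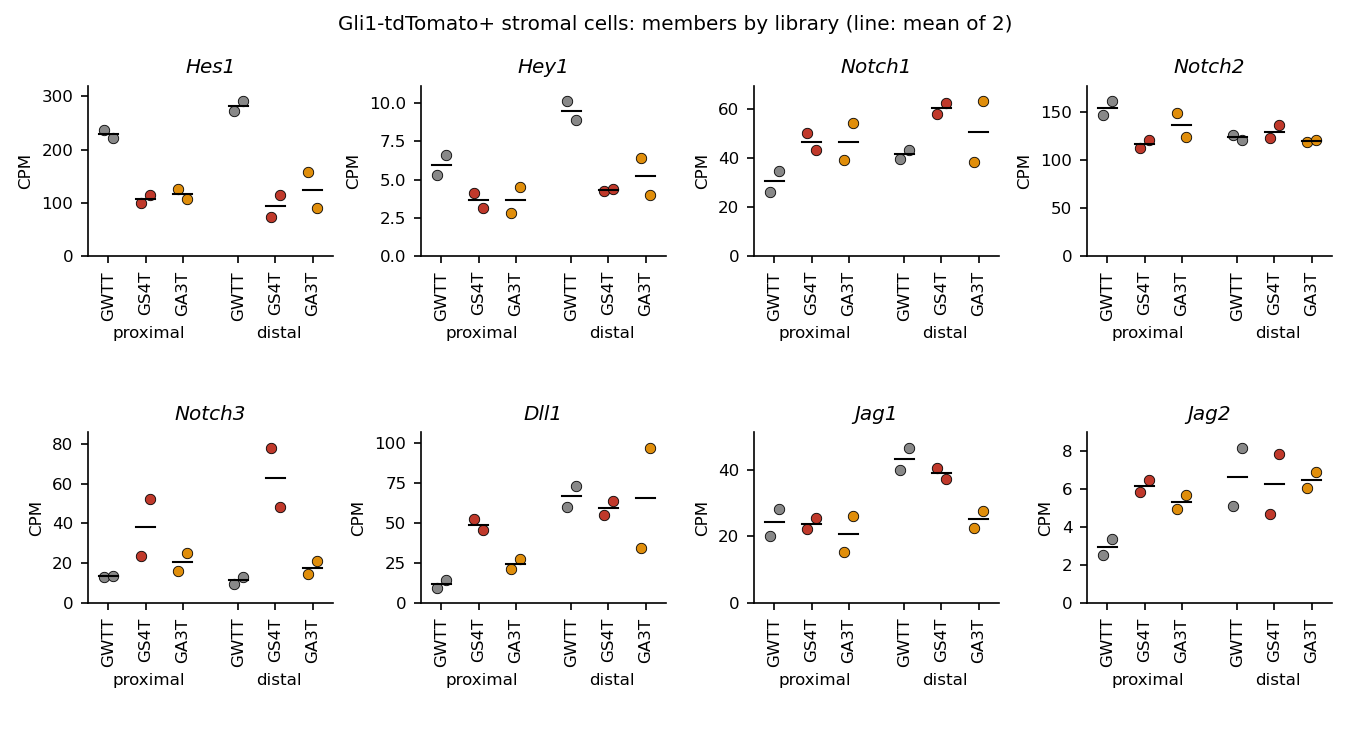
CPM of 8 members in the 12 stromal libraries, by segment and genotype. Points are libraries and lines the mean of 2. Hes1 and Hey1 are lower in all 8 knockout libraries than in the GWTT libraries of the same segment, which both knockouts share. Hes1 was called only in GS4T and Hey1 only in distal GS4T. Notch3 is above every GWTT library in the 4 GS4T libraries, and Dll1 differs between GWTT segments.

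For the members that were higher after Smad4 loss the sequence before the start site was read from RefSeq (GRCm38.p6). 8 of the 10 members had an entry, and Hes1 and Hey1 had none. The windows of 250 bases were searched on both strands for TGGGAA (the core of the RBPJ site), CACNAG (the N box bound by Hes proteins) and GGCGCC (a GC-rich element bound by BMP-activated Smads), which 21.6%, 36.7% and 9.59% of all 32851 promoter windows hold. No window of the 8 members held TGGGAA. The N box was matched in Notch1, Notch2, Notch3, Dll4 and Nrarp, and GGCGCC only in a window at a second, inner start of Dll1. To show what lies before the 2 members with the largest called rises, their windows are printed 5′ to 3′, with motif matches in capitals. The Notch3 window lies on the minus strand at chr17:32166891-32167140 and held 2 N box matches. The Dll1 window, at its outer start, lies on the minus strand at chr17:15376933-15377182 and held no match.
Notch3: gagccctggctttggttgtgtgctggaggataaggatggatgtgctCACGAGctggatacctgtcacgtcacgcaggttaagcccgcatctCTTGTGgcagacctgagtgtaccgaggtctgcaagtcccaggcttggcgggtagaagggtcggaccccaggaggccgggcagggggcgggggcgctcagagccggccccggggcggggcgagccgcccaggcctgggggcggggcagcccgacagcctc
Dll1: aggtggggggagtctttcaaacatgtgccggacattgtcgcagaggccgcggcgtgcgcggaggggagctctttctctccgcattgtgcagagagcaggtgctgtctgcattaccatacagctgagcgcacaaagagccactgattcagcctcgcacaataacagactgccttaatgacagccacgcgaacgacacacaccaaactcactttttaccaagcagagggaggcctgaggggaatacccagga

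Loss of Alk3 in the stromal cells gave 0 called members with limma in either segment, beside 0.358% of all genes in the proximal and 0% in the distal comparison. By edgeR the count was also 0 in both. Before adjustment 4 of the 9 members tested in the proximal and 3 of 9 in the distal comparison had p under 0.05, beside 21.6% and 18.7% of all genes. DESeq2 called 2 members in each segment, beside 10.5% and 7.38% of all genes, which were Hes1 and Dll1 in the proximal and Hes1 and Jag1 in the distal colon. The median log2 fold change of the 9 members tested was 0.59, against 0.012 over all genes, in the proximal colon, and -0.20, against 0.0084 over all genes, in the distal colon. The GWTT libraries are the controls of both knockouts, so the GA3T and GS4T values are not independent.

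Hes1 was again below every control. It was at 4222 and 3861 normalized counts in proximal GWTT and 2274 and 1894 in proximal GA3T, a log2 fold change of -0.96 (SE 0.14, adjusted p = 0.073). Distal values were 5107 and 5357 in GWTT and 2797 and 1738 in GA3T, a log2 fold change of -1.25 (SE 0.24, adjusted p = 0.12). Without distal GA3T library 1, the only male library of that comparison, the distal log2 fold change was -1.59. Without proximal GA3T library 2, in which Gli1 was low, the proximal value was -0.83. The dissociation and heat shock list summed to 11609 to 14225 CPM in proximal GWTT and 6270.0 to 7597 CPM in proximal GA3T, and to 8444 to 11325 CPM in distal GWTT and 8358 to 8376 CPM in distal GA3T, where the median log2 fold change of its genes was 0.064. Epithelial genes summed to 13.7 to 541 CPM in proximal GWTT and 537 to 846 CPM in proximal GA3T, and to 59.4 to 189 CPM in distal GWTT and 450.1 to 1078 CPM in distal GA3T. The immune list summed to 3925 to 5116 CPM in distal GWTT and 2452 to 2460.1 CPM in distal GA3T. No gene of these lists was called in GA3T, and their part in the values of Hes1 and the other members was not tested. Hey1 was at 189 and 164 in distal GWTT and 114 and 77.6 in distal GA3T, with no overlap (adjusted p = 0.21).

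Dll1 was at 166 and 247 normalized counts in proximal GWTT and 376 and 484 in proximal GA3T, a log2 fold change of 1.07 (SE 0.27, adjusted p = 0.13), and without library 2, in which Gli1 was low, it was 0.89 (adjusted p = 0.43). In the distal segment GA3T libraries were at 616 and 1868, 1 below and 1 above the controls at 1126 and 1349.5. Jag1, a ligand also made by stromal cells, was at 746 and 859 in distal GWTT and 403 and 532 in distal GA3T, a log2 fold change of -0.79 (SE 0.18, adjusted p = 0.15). Notch3 was at 236 and 236 in proximal GWTT and 291 and 438 in proximal GA3T (adjusted p = 0.25). In the distal colon it was at 175 and 246 in GWTT and 256 and 406 in GA3T (adjusted p = 0.34), and in neither segment did the groups overlap. The other log2 fold changes of the members tested, none called, ran from -0.70 for Hey1 to 1.53 for Dll4, both in the proximal segment. No member's change differed between segments by the interaction test, which called 0% of genes.

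Around the members, 41 of the 50 other pathway genes were tested in each GS4T comparison, and each segment had 3 called higher and 5 called lower, or 8 of 41 beside 15.6% of all genes in the proximal and 23.2% in the distal comparison. Of them Notch4, Adam10, Dner and Pofut1 were called in both. Dner, a neuronal Delta- and Notch-like ligand, fell furthest. In proximal GS4T cells it went from 359.6 ± 113 to 20.4 ± 7.69 normalized counts, a log2 fold change of -4.09 (adjusted p = 0.0081). The distal level went from 340.5 ± 18.2 to 48.9 ± 3.96 normalized counts, a log2 fold change of -2.78 (adjusted p = 0.0020). Notch4, which averaged 39.2 CPM in goblet and 2.40 CPM in stromal control cells, rose in both segments. Distal GS4T cells went from 46.2 ± 11.4 to 405 ± 239 normalized counts, a log2 fold change of 2.99 (adjusted p = 0.0097). The part of other cell types in that rise was not tested. Adam10, the protease of the first receptor cut, rose in both, in distal cells from 1290.3 ± 185 to 2376 ± 123 normalized counts, a log2 fold change of 0.89 (adjusted p = 0.0090). Pofut1, which adds fucose to the receptors, fell in both, in distal cells from 2238 ± 77.2 to 1295 ± 104 normalized counts, a log2 fold change of -0.79 (adjusted p = 0.0075). Maml2, a co-activator, and Numbl fell in proximal cells by 1.05 and 0.64 on the log2 scale, and Mib2, a ubiquitin ligase for ligands, and Dtx3 fell in distal cells by 1.00 and 0.86. In GA3T cells 0 of 43 proximal and 0 of 41 distal genes of the list were called.

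In goblet cells, which keep Smad4 and Alk3, no member was called in any of the 4 comparisons by limma, edgeR or DESeq2. Calls over all genes were few, at 0.325% for proximal and 0% for distal GS4M2 and at 0.0899% for proximal and 0% for distal GA3M2. Before adjustment 1 member had p under 0.05 in proximal GS4M2 (Jag2), 1 in distal GS4M2 (Dll1), 0 in proximal GA3M2 and 1 in distal GA3M2 (Hes1), of 8 or 9 tested. Over all genes that share was 16.7%, 10.6%, 15.3% and 11.7%. The median log2 fold change of the members tested was between -0.10 and 0.38 in the 4 comparisons, and that of all genes between -0.003 and 0.0029. For proximal GS4M2 a supplementary table of the study gives these columns the opposite group names. The deposited names are used here, since the reads under GWTM2 equal those of the GA3M2 table, and under the other naming each proximal GS4M2 sign would turn. The goblet markers summed to 30905 to 63128 CPM in GWTM2, 36561 to 49506 CPM in GS4M2 and 10023 to 24444 CPM in GA3M2, and the fibroblast markers reached 29.8 CPM in proximal GA3M2. Muc2 averaged 11141 CPM in proximal GWTM2, 22754 CPM in proximal GS4M2 and 880 CPM in proximal GA3M2. Only in proximal GA3M2 was it called, as lower. Its distal means were 4349 CPM in GWTM2, 12658 CPM in GS4M2 and 842 CPM in GA3M2. The part of these markers in the values below was not tested.

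Hes1, the target with the most reads in goblet cells, was at 944 and 980.1 normalized counts in distal GWTM2 and 1387 and 1391 in distal GA3M2, a log2 fold change of 0.53 (SE 0.14, adjusted p = 0.32). The GA3M2 libraries lay close together and above both controls. In proximal GA3M2 they were at 1265 and 2234 against 1184 and 1259.8, and in distal GS4M2 at 1131 and 1534 against 986 and 1015. The log2 fold changes of Hes1 over the 4 goblet comparisons were 0.12 to 0.53, with none called. Without proximal GA3M2 library 1 both Hes1 and Notch1 were called, at 0.87 (adjusted p = 0.035) and -1.57 (adjusted p = 0.031), a value that rests on library 2 alone. The comparisons of a segment share their controls.

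Of the ligands, Dll1 was at 506 and 571 normalized counts in distal GWTM2 and 204 and 402 in distal GS4M2, a log2 fold change of -0.91 (SE 0.34, adjusted p = 0.47). Its distal GA3M2 values were 431 and 209.9 against 484 and 551, also below both controls. Dll4, which with Dll1 was the most abundant member ligand per length, was at 545 and 566 in proximal GWTM2 and 626 and 866 in proximal GS4M2 (adjusted p = 0.31). Jag2 was at 102 and 103 in proximal GWTM2 and 135 and 175 in proximal GS4M2, a log2 fold change of 0.58 (SE 0.22, adjusted p = 0.27). The groups overlapped for neither gene. Jag1 had log2 fold changes between -0.17 and -0.12 in the 4 comparisons. Notch1 was uneven among replicates, at 863 and 311 in proximal GA3M2 and 597 and 1207 in distal GS4M2. Notch3 was at or below 35.2 normalized counts in each goblet library, and Hey1, where listed, at or below 14.1. Neither segment interaction (GS4M2 and GA3M2) called a member or any gene (0% each).

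Of the other pathway genes 1 of 35 was called in proximal GS4M2, and 0 of 36 in distal GS4M2, 0 of 39 in proximal GA3M2 and 0 of 36 in distal GA3M2. That gene was Hes6, a Hes family member that counters Hes1, which under the deposited names went from 1725 ± 148 to 3569 ± 444 normalized counts, a log2 fold change of 1.05 (adjusted p = 0.047).

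**Figure D3:**
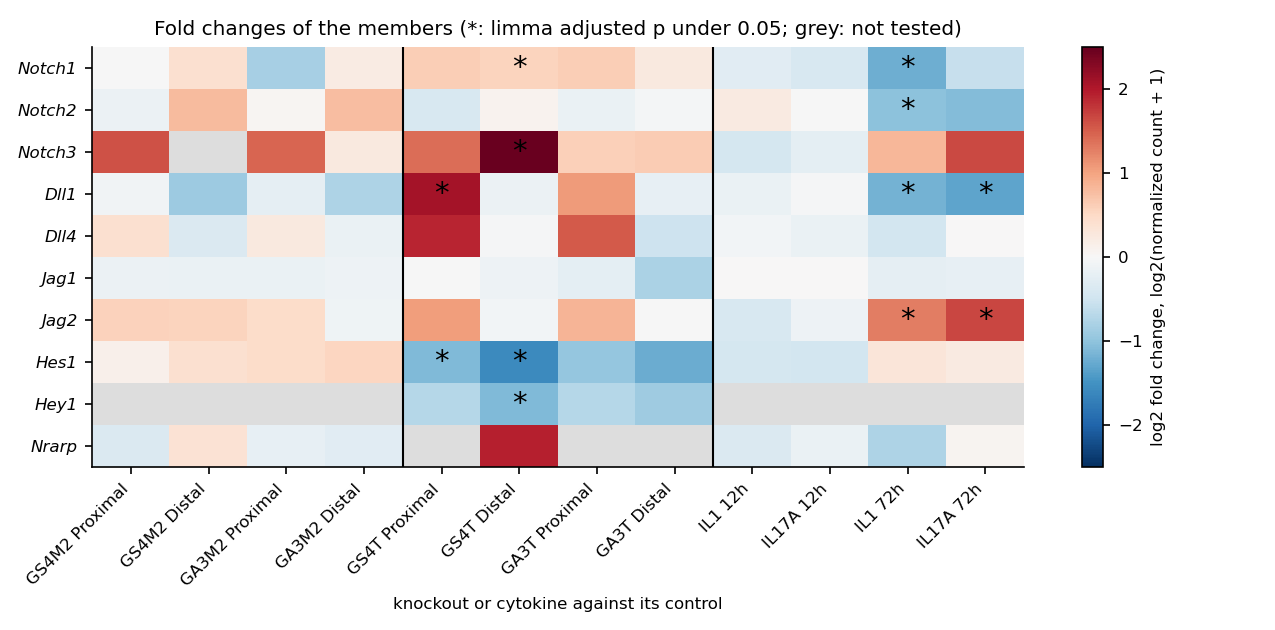
Log2 fold changes of the 10 members (rows) in the 12 comparisons (columns), on log2(normalized count + 1). Stars mark an adjusted p under 0.05 and grey a member not listed or below the filter. The stars fall in the 2 GS4T and the 2 72 h columns, and the Hes1 and Hey1 rows are blue across the 4 stromal columns.

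Control libraries 2 and 4 of 12 h had the same reads as control libraries 1 and 4 of 72 h for 99.98% of genes in each case, so the 18 labels hold 16 distinct libraries, and 2 of the 3 controls carry both times. The third 72 h control, library 2, was almost like library 4 (median chi-square per gene 1.19), as were libraries 3 and 4 of IL1 at 12 h (1.17) and of IL17A at 12 h (1.27). The lowest value between different libraries, 1.097, was that of library 1 of IL1 and library 1 of IL17A at 12 h, which are of different groups. Which time the shared controls belong to cannot be told from the files, so against them the cytokine and the time in culture cannot be told apart at either time. The libraries also differed by sex. At 12 h each group had both, with Y-linked reads in control libraries 1 and 2 and in library 1 of each cytokine, and Xist in the other 5. At 72 h Y-linked reads marked control library 1, IL1 libraries 1 and 3 and all 3 IL17A libraries, and Xist the rest.

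At 12 h no member was called with either cytokine by limma without a block, edgeR or DESeq2, and limma called 0.0542% of all genes for IL1 and 0.0385% for IL17A. Before adjustment 1 of 9 members had p under 0.05 in each, which was Hes1, beside 4.38% of all genes for IL1 and 5.14% for IL17A. It was at 1198, 1267 and 1014 normalized counts in controls and 998, 752 and 834 with IL1, each below the controls, a log2 fold change of -0.43 (SE 0.15, adjusted p = 0.89). With IL17A it was at 1093, 809 and 785 against 1257, 1328 and 1062, which overlap. Within each sex every treated library lay below every control for both cytokines. The 9 libraries of 12 h fell into the same 2 sets by profile, and no member was called with the set as a block. With the replicate number as a block, which rests on libraries 1 and 4, Notch1 at -0.26 (adjusted p = 0.047) and Hes1 at -0.32 (adjusted p = 0.0051) were called for IL17A, beside 7.72% of all genes, and none for IL1. Of the other pathway genes 0 of 41 were called with each cytokine.

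At 72 h with IL1, 4 of 9 members were called, 1 higher and 3 lower, beside 38.4% of all genes. The receptors Notch1 and Notch2 and the ligand Dll1 fell, and the ligand Jag2 rose. The median log2 fold change over the 9 members was -0.46, against -0.00086 over all genes. All 4 calls were lost without the 2 recurring controls (adjusted p of 0.14 for Jag2 to 0.28 for Notch1), with the near-identical controls counted once, and without control library 2 or 4. With the 4 distinct controls all 4 were called.

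Notch1 was at 1128, 709 and 741 normalized counts in controls and 547, 404 and 213 with IL1, a log2 fold change of -1.22 (SE 0.35, adjusted p = 0.029). Notch2 was at 294, 359 and 357 in controls and 120.4, 243 and 149 with IL1, a log2 fold change of -1.03 (SE 0.29, adjusted p = 0.025). Dll1 was at 108, 152 and 161 in controls and 53.0, 74.7 and 54.8 with IL1, a log2 fold change of -1.19 (SE 0.29, adjusted p = 0.016). For these 3 genes each treated library lay below each control, and so also within each sex. Jag2 was at 153, 75.3 and 76.3 in controls and 143, 359.7 and 250.1 with IL1, where 1 treated library lay inside the control range, and its log2 fold change was 1.28 (SE 0.42, adjusted p = 0.043). That library, IL1 library 1, also lay below the 1 control of its own sex. Without IL1 library 2 only Notch2 (-1.32, adjusted p = 0.0068) and Dll1 (-1.35, adjusted p = 0.015) were called, and without IL1 library 3 only Dll1 (-1.13, adjusted p = 0.043).

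With IL17A at 72 h, 2 of 9 members were called, 1 higher and 1 lower, beside 10.8% of all genes, and the median log2 fold change over the 9 was 0.0055, against -0.0056 over all genes. Dll1 fell from 108, 152 and 161 normalized counts to 45.9, 72.5 and 49.1, a log2 fold change of -1.32 (SE 0.32, adjusted p = 0.048). Jag2 rose from 152, 74.8 and 76.2 to 215, 444 and 294, a log2 fold change of 1.66 (SE 0.39, adjusted p = 0.047), with no overlap. The 3 treated libraries stood on the same side of control library 1, the only control of their sex. Both adjusted p lay just under the threshold, edgeR called neither (0.051 and 0.052), and neither was called without the 2 recurring controls, or without any 1 library except IL17A library 2. Against the 4 distinct controls Dll1, Jag2 and Notch3 were called. Notch3 was at 46.9, 30.3 and 16.1 in controls and 77.3, 138 and 70.5 with IL17A (adjusted p = 0.065). Notch1 and Notch2 stood apart in IL17A library 2, at 942 and 351, within the control range, when libraries 1 and 3 had 102 and 107 of Notch2.

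Hes1 was not called at 72 h, and its log2 fold change was 0.30 for IL1 (adjusted p = 0.15) and 0.23 for IL17A (adjusted p = 0.38). Nrarp was at 34.9, 25.9 and 21.9 normalized counts with IL1 against 57.7, 35.2 and 50.9 in controls (adjusted p = 0.14). Crypt progenitor markers moved in the same libraries. All 6 of that list were lower with IL1. None of the 5 tested was called with IL17A, where Lgr5 was not listed. The list summed to 1343 to 1657 CPM in controls, 59.7 to 278 CPM with IL1 and, without Lgr5, 68.6 to 878 CPM with IL17A. Lgr5, the colon stem cell marker, was at 82.0 to 172 CPM in controls and 1.42 to 7.37 CPM with IL1. Of the 7 epithelial genes 6 were higher with IL1 and 1 with IL17A, and they summed to 8780.4 to 10139.7 CPM in controls, 12487 to 15605 CPM with IL1 and 11795 to 12875 CPM with IL17A. Fos, Junb and Atf3 of the 10 dissociation and heat shock genes were higher with both cytokines, and that list summed to 451 to 611 CPM in controls, 723 to 998 CPM with IL1 and 686 to 863 CPM with IL17A. The part of these lists in the receptor and ligand values was not tested.

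For IL1 the change differed between 12 and 72 h in 3 of 9 members, beside 25.5% of all genes, and for IL17A in 0 of 9, beside 0.0384%. The 12 h minus 72 h difference was 1.26 (SE 0.33, adjusted p = 0.020) for Notch2, -1.69 (SE 0.55, adjusted p = 0.044) for Jag2 and -0.73 (SE 0.21, adjusted p = 0.027) for Hes1. In this test 2 control libraries enter under both times. No member was called for IL1 without control library 1, IL1 library 3 or IL1 library 4 of 12 h, or without control library 2 or 4 of 72 h, and without IL17A library 2 of 72 h 4 members were called for IL17A.

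Of 41 other pathway genes tested with IL1 at 72 h, 10 were higher and 4 lower, beside 38.4% of all genes called. With IL17A 1 was higher and 1 lower of 39, beside 10.8% of all genes. Dlk1, a non-canonical ligand, rose with both. It went from 17.2 ± 8.89 to 757 ± 358 normalized counts, a log2 fold change of 5.42 (adjusted p = 0.0020) with IL1, and from 17.1 ± 8.82 to 375 ± 312 normalized counts, a log2 fold change of 4.15 (adjusted p = 0.036) with IL17A. Lfng, a glycosyltransferase that tunes which ligand a receptor answers, went with IL1 from 329 ± 41.6 to 69.8 ± 38.3 normalized counts, a log2 fold change of -2.39 (adjusted p = 0.0065). Hes2, another Hes gene, rose with IL1 by 2.51, Notch4 by 1.55, Maml2 by 2.23 and Aph1c, a subunit of gamma-secretase, by 3.49 on the log2 scale. Maml2 averaged 9.76 ± 7.51 normalized counts in controls and 47.99 ± 30.46 with IL1, so it passed the filter only through the IL1 libraries. Aph1c averaged 10.98 ± 3.68 in controls, close to the filter, and 174.7 ± 154.5 with IL1. Dtx4, a Deltex ubiquitin ligase, fell with IL17A by 1.20.

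**Figure D4:**
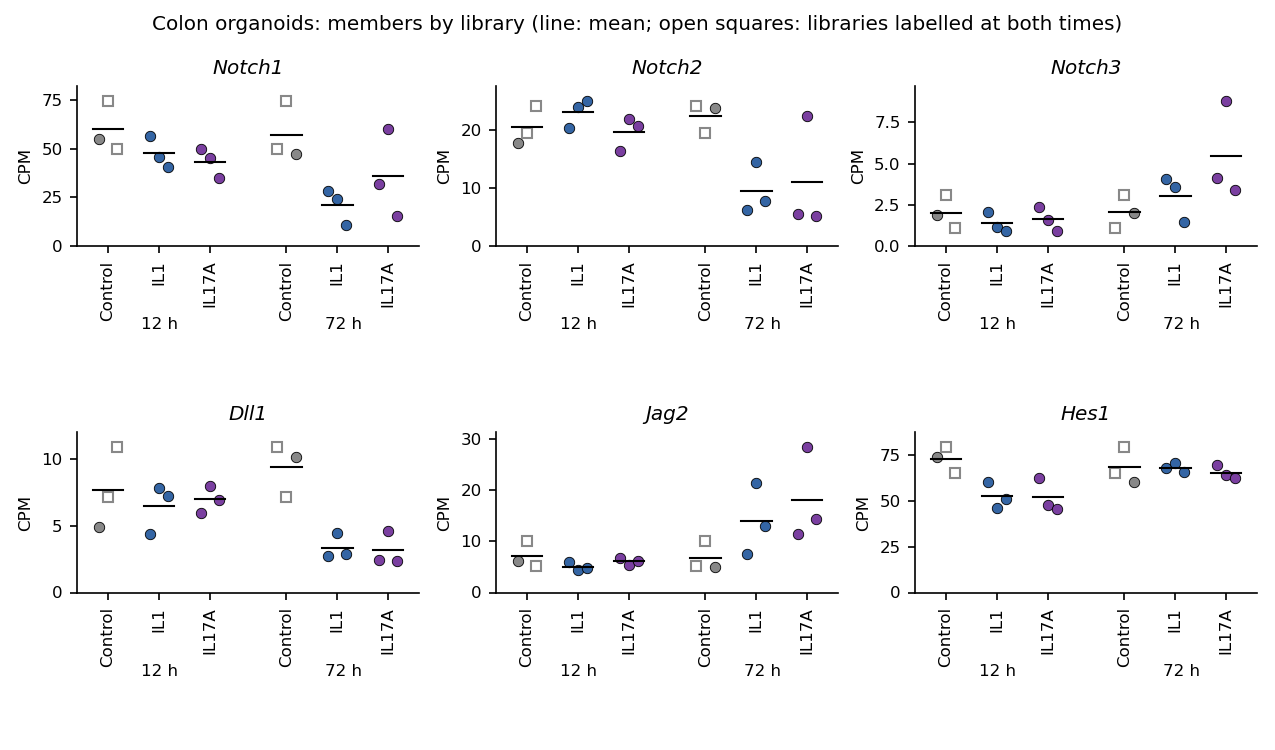
CPM of 6 members in the organoid libraries by time and treatment. Points are libraries, open squares are the control libraries that carry both time labels, and lines are means over the labels. At 72 h Dll1 is below the controls in all 6 cytokine libraries, Notch1 and Notch2 are below in all 3 IL1 libraries, and Jag2 is higher in 5 of 6.

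Across the 16 distinct organoid libraries the genes most like each member in log2(CPM + 1) were, for Notch1, Cit (r = 0.98) and Pcyox1l (r = 0.97), for Notch2, Cbfa2t3 (r = 0.99) and Slc12a8 (r = 0.99), for Dll1, Ankrd26 (r = 0.96) and Crem (r = 0.96), and for Jag2, Ube2h (r = 0.92) and Col18a1 (r = 0.92). Cit is a kinase of cell division. Over the 12 goblet libraries they were, for Hes1, Mrpl23 (r = 0.94) and Agpat2 (r = 0.93) and, for Dll4, Rhbdf2 (r = 0.91) and Ly96 (r = 0.87), and over the 12 stromal libraries, for Dll1, Prdm1 (r = 0.95) and Vcam1 (r = 0.95) and, for Notch3, Ubxn8 (r = 0.96) and Pgk1 (r = 0.96). These libraries share genotypes, segments and treatments, so the correlations are descriptions across few groups.

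By position, in GENCODE M21 on GRCm38, the assembly also called mm10, Hes1 lies at chr16:30064384-30067796, Hey1 at chr3:8663359-8667256, Notch1 at chr2:26457903-26516663, Notch3 at chr17:32120820-32166852, Dll1 at chr17:15367354-15376872 and Jag2 at chr12:112907819-112929776. Exons of Notch1, Notch3, Dll1, Dll4 and Nrarp overlap exons of genes on the opposite strand, and those of Notch2 overlap Gm42820 on the same strand. The strand setting of the counting is not given in the sources used here, so for these 6 members reads of the overlapping gene cannot be told apart where they were counted. Hes1, Hey1, Jag1 and Jag2 have no such overlap.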

How the data were processed

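The signal values are gene counts that the authors normalized with DESeq2 1.28.1, each table by itself, after mapping unique reads with STAR 2.5.3 to mm10, as deposited in 12 tables. The counter, annotation and strand setting are not given in the sources used here. In each column 100% of values lay within 0.1 of a whole multiple of 1 step, and dividing by it gave the reads behind depth, CPM, edgeR and DESeq2. Rows without a gene name, 4 in either GS4M2 table and up to 28.2% of a column, were left out.

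Each table was fitted alone with limma 3.58.1 (trend) on log2(value + 1), for genes with a mean of at least 10. A gene was called where its p, adjusted over all genes by Benjamini-Hochberg, was under 0.05. Fold changes are on that scale, which understates low genes. Goblet and stromal controls were compared on log2(CPM + 1), for genes with a mean of at least 1 CPM, with the segment as a covariate. Segment and time differences were interactions over both tables.

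The members and lists were chosen with earlier results of these data known. All members were named, and of the other pathway genes the called ones with the largest changes, at most 6 per comparison, with the 2 most alike genes per member, by Pearson r with each library counted once. Alternatives were pseudocounts of 0.1 and 10, no filter, means of 50 and 5 CPM, upper-quartile scaling, edgeR 4.0.16, DESeq2 1.42.0, the study's rule (unadjusted p under 0.05, absolute log2 fold change of at least 1), replicate blocks and left-out libraries, where a lone library was assumed to vary like the other groups. Chosen after seeing the data were the averaged near-identical libraries (median chi-square under 1.3), the 4 distinct controls, the controls that do not recur, the sets of like libraries, treated libraries compared directly, and the interaction of cell type and segment. The fits were tested on simulated data.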

Additional observations from a re-analysis of the deposited data

Results flagged for a closer look

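Of 20 sets of 4 control libraries, 1 per member and cell type, 3 held a library farther from the rest than Dixon's limit, which chance gives in about 1 of 20. Notch3 was 9.36 CPM in distal GWTT library 1, below the other 3. Dll4 was 51.6 CPM in distal GWTM2 library 1, above the other 3, and Jag2 was 3.19 CPM in distal GWTM2 library 2, below the other 3. Each set pools 2 segments.

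The change of Dll1 with Smad4 loss differed between segments of the stroma by 2.22 (SE 0.29, adjusted p = 0.048), and its goblet minus stromal difference by 2.21 (SE 0.30, adjusted p = 0.032), both proximal minus distal and both resting on the same 4 GWTT libraries. With IL1 the changes of Notch2 (1.26, SE 0.33, adjusted p = 0.020), Jag2 (-1.69, SE 0.55, adjusted p = 0.044) and Hes1 (-0.73, SE 0.21, adjusted p = 0.027) differed between 12 and 72 h, in a test that counts 2 control libraries at both times. What lies behind these differences was not tested.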

How the results depend on the processing

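Counts of called members moved by over 1.5 times as follows, and the cause was not tested. No share of all genes is given for the study's rule, the left-out libraries or the replicate blocks, except IL17A at 12 h. Those counts thus do not tell a change of the members from a shift over all genes. With DESeq2 the count was 6 in proximal GS4T, 2 in proximal GA3T and 2 in distal GA3T, beside 23.5%, 10.5% and 7.38% of all genes. With the study's rule it was 5, 2 and 1. The IL1 count at 72 h went to 0 with the near-identical controls averaged and to 0 without the recurring controls, as did that of IL17A (0 and 0), which was also 0 with edgeR and 0 with upper-quartile scaling. The segment differences of GS4T and of goblet against stromal cells (Dll1 in both) went to 0 with a pseudocount of 0.1 and to 0 with edgeR.

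Leaving out 1 library at a time gave 0 to 3 calls in proximal GS4T, 2 to 3 in distal GS4T, 0 to 1 in distal GA3T, 0 to 2 in proximal GA3M2, 0 to 4 for IL1 and 0 to 3 for IL17A at 72 h, 0 to 4 for each cytokine's time difference, and 0 to 1 for the segment differences of GS4T and of goblet against stromal cells.

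The labels do not say that a replicate number marks a shared animal, culture or day. At 12 h the libraries numbered 1, and those numbered 4, also shared sex and profile set. Deviations of same-numbered libraries correlated at -0.057 to 0.30 in sorted cells, 0.62 to 0.64 at 12 h and -0.19 to 0.20 at 72 h, with 2 pairs each. With the replicate block the count was 2 for IL17A at 12 h (Notch1 and Hes1), 0 for IL1 and 0 for IL17A at 72 h, 0 for the GS4T segment difference, 0 for the IL1 time difference, and 3 in proximal GS4T. It moved no other count by over 1.5 times.

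Of 491 single values under alternatives, for 32 pairs of member and comparison, 375 kept direction and side of the threshold, 98 lost the call, 18 gained it and 0 changed direction. A merger of libraries with a low mean chi-square per gene was planned, and no pair of a group met the limit. The lowest such value was 3.023, for libraries 3 and 4 of IL1 at 12 h. Each library held 14222902 reads or more, yet Notch3 and Hey1 in goblet and Nrarp in stromal cells rest on few reads.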
